A study of Drosophila melanogaster with 8 samples.

Results

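The 32 genes described here encode the Dpr proteins and the DIPs (Dpr-interacting proteins) of Drosophila melanogaster. They were taken by symbol, as every row of the count table named dpr or DIP with its number or Greek letter. The family itself was chosen with earlier results of these data known. The rule found 21 Dpr genes and 11 DIP genes among 23932 features. Dprs and DIPs are immunoglobulin superfamily proteins on the surface of neurons. A given Dpr binds only certain DIPs on a neighbouring cell, and the family is known for matching synaptic partners in the visual system, in the mushroom body and at the larval neuromuscular junction. The founding member, dpr1, was found in a mutant with a defective proboscis extension response to salt.

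Expression was measured by RNA sequencing of dissected brains of flies 0 to 1 day old. EmcOE brains carried elavC155-Gal4, a driver active in neurons, and a UAS-emc transgene, and Control brains came from the same driver line crossed to white*. Emc lacks a DNA-binding region and dimerizes with the bHLH transcription factor Daughterless (Da). The comparison asks which transcripts differ when Emc is raised in neurons by this driver. The paper calls the driver pan-neuronal, and reports strong expression in the mushroom bodies and weaker expression in other places. Each group had 4 samples, each pooled from males and females, and the Gal4 driver was present in both groups. The groups also differed in the line crossed to the driver, so the genetic background of that line and the transgene cannot be told apart. Total counts were 21400830 to 41619980 in EmcOE brains and 20751513 to 22776791 in Control brains. Normalized counts below are read-pair counts scaled by library size and by TMM (edgeR's trimmed mean of M values). The 9788 features whose mean in either group reached 20 normalized counts were compared with the quasi-likelihood test of edgeR, and p-values were adjusted over all of them by the Benjamini-Hochberg method. Calls (upregulated or downregulated) needed an adjusted p no higher than 0.05 together with a log2 fold change of 0.2 or more in either direction. Transcripts of emc, which the counts do not separate into transgenic and endogenous, averaged 6055 ± 172 in EmcOE brains and 4966 ± 155 in Control brains (SD, n = 4 each, log2 fold change 0.29, adjusted p = 0.00246). Those of da averaged 1895 ± 88.3 in EmcOE brains and 1889.6 ± 42.9 in Control brains (log2 fold change 0.0029, adjusted p = 0.977).

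Most Dpr and DIP genes had slightly higher counts in EmcOE brains, and dpr21 stood apart with a 1.85-fold higher mean. Of the 31 members that passed the count filter, 5 were upregulated (dpr21, dpr20, dpr14, dpr3 and dpr10), against 3.57% of all features tested. DIP-epsilon was the member that was downregulated, and 1 of 31 is close to the 5.12% of all features that were. All 5 upregulated genes were Dprs, of 21 tested, and no DIP was upregulated by edgeR or DESeq2, of 10 tested. Of these 10 DIPs, 4 were higher at an unadjusted p of at most 0.05 in edgeR, against 12.8% of all features. Whether Dprs and DIPs differ in how often they were upregulated was not tested. In bulk brain RNA, more cells of a type and more RNA per cell cannot be told apart.

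The small differences of the other members mostly had the same sign. The log2 fold change was above 0 for 29 of 31 members, against 53.0% of all features. Its median was 0.14 over the members and 0.013 over all features. For 17 of 31 members, every EmcOE sample was above every Control sample, against 8.51% of all features, and for DIP-epsilon every EmcOE sample was below every Control sample, against 7.86%. At an unadjusted p of at most 0.05, 18 of 31 members were higher in EmcOE brains, against 12.8% of features. The 21 Dpr genes had a median of 0.14, and 20 of them were above 0. The 10 DIP genes tested had a median of 0.12, and 9 of them were above 0. Of the 25 members that were not called, 24 had a log2 fold change above 0, and their values ran from -0.035 to 0.24. Most of these sizes lie below the threshold of 0.2. Genes measured in the same samples are not independent of each other.

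**Figure D1:**
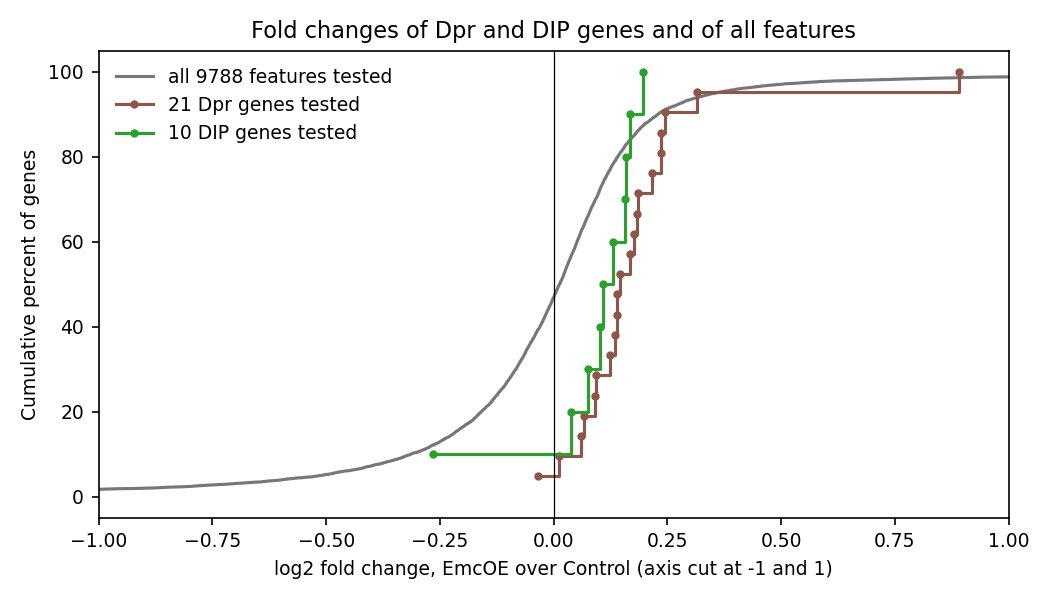
Cumulative percent of genes (y axis) by log2 fold change, EmcOE over Control (x axis, shown from -1 to 1), for 21 Dpr genes, 10 DIP genes and all 9788 features tested. The curves of both families lie right of 0 for most genes (medians 0.14 and 0.12, against 0.013 for all features), with DIP-epsilon at the left and dpr21 at the right.

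The levels of the members spanned a wide range, and the order of the genes was nearly the same in both groups. Levels between genes are compared as normalized counts per kb of exon. In Control brains dpr7, a Dpr bound by DIP-kappa, had the highest level (3388 ± 251 in EmcOE brains and 3470.2 ± 346 in Control brains per kb). It was followed by dpr12, the partner of DIP-delta, at 1799 ± 101 in EmcOE brains and 1690.2 ± 61.4 in Control brains. The third was dpr21, at 2200.3 ± 97.2 in EmcOE brains and 1188 ± 74.1 in Control brains, which put it second in EmcOE brains. These 3 genes made up 33.5% of the summed level of the family in EmcOE brains and 32.04% in Control brains. The 8 genes with the highest levels in Control brains were all Dprs. The median level was 638 in EmcOE brains and 542 in Control brains per kb for Dpr genes, and 352 in EmcOE brains and 316 in Control brains for DIP genes.

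At the low end in Control brains were dpr16 (257 per kb), dpr6 (162), DIP-alpha (51.3) and DIP-iota (8.56). The level of dpr7 per kb was 67.7 times that of DIP-alpha, with annotated exon lengths of 1515 and 8983 bases. Normalized counts in Control brains averaged 5257 for dpr7 and 460 for DIP-alpha. DIP-iota averaged 10.1 ± 2.65 normalized counts in EmcOE brains and 11.4 ± 4.83 in Control brains, under the minimum of 20, and was not tested. Among the 31 pairs of neighbours in the order of Control levels, the Control samples were fully separate in 11. The separate steps included each step between dpr7, dpr12, dpr21, dpr19, dpr18 and dpr9, and each step from dpr16 down to DIP-iota. Between dpr11 and dpr10, from 667 to 428 per kb, each of the 14 genes overlapped its neighbour in the Control samples. Across genes, which are not independent replicates, the levels in EmcOE and Control brains had a rank correlation of 0.99 (Spearman, 32 genes).

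**Figure D2:**
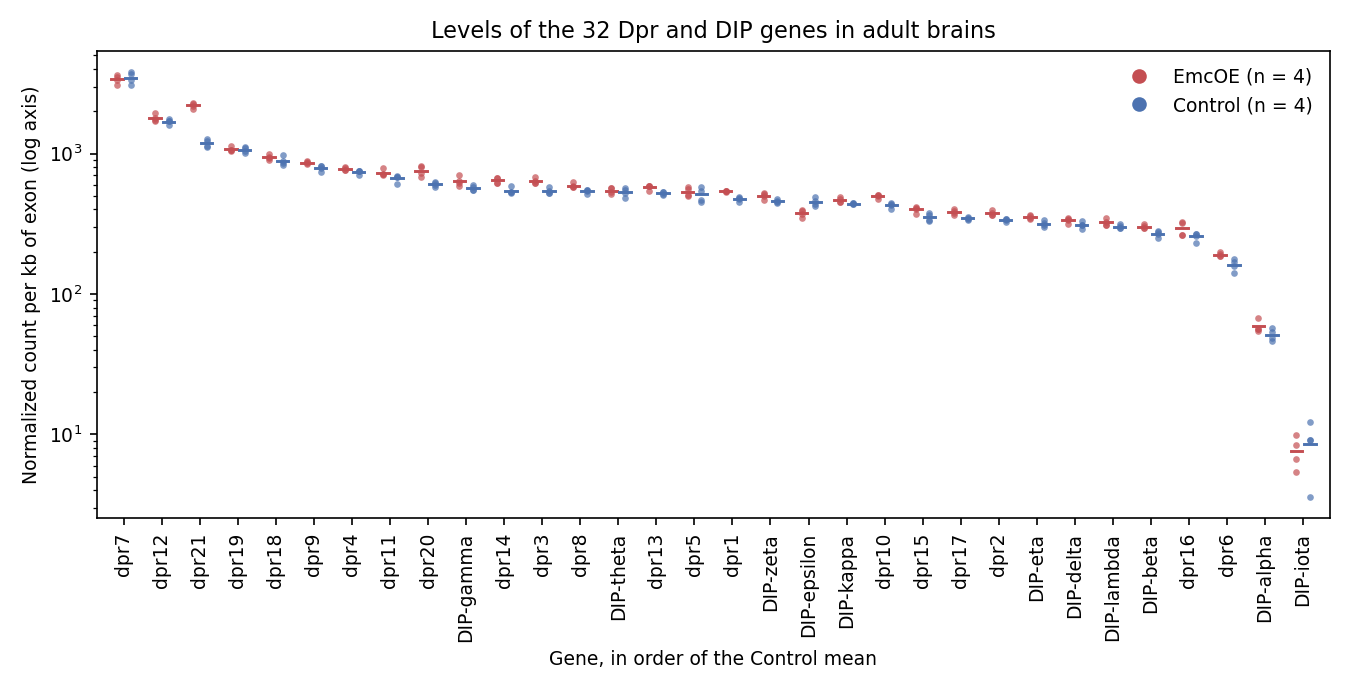
Normalized count per kb of exon (y axis, log scale) of the 32 Dpr and DIP genes in each EmcOE and Control sample, with group means as bars, ordered by the Control mean. Levels lay between 3470.2 per kb for dpr7 and 8.56 for DIP-iota in Control brains, and dpr21 is the gene whose EmcOE samples lie farthest above its Control samples.

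The genes were next grouped by the published binding partners of their proteins, each group named by its DIP. The group of DIP-beta, a receptor expressed in lamina neurons of the visual system, contains dpr8, dpr9 and dpr21. In EmcOE brains dpr21 (FBgn0260995, chromosome 2R, 3066499 to 3191011, BDGP6.32) had normalized counts of 2276, 2234, 2054 and 2176, and in Control brains 1114, 1122, 1222 and 1262. The lowest EmcOE sample was thus far above the highest Control sample. The log2 fold change was 0.89 (SE 0.056, adjusted p = 5.85e-06). Its call held when each sample in turn was left out (log2 fold change 0.86 to 0.92). The other Dprs of the group differed less. Counts of dpr8 averaged 2935 ± 118 in EmcOE brains and 2665 ± 77.7 in Control brains (log2 fold change 0.14). Counts of dpr9 averaged 4147 ± 90.4 in EmcOE brains and 3805 ± 161 in Control brains (0.12). DIP-beta itself averaged 1593 ± 54.4 in EmcOE brains and 1419 ± 68.8 in Control brains (0.17). None of these 3 passed the test (adjusted p of 0.0798, 0.108 and 0.0637), although the samples of the groups did not overlap in any of them.

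Within the group, dpr21 was higher in EmcOE brains relative to dpr8, another Dpr, and to DIP-beta. Per kb of exon, dpr21 was 3.99, 3.80, 3.30 and 3.80 times dpr8 in EmcOE brains and 2.04, 2.19, 2.29 and 2.33 times in Control brains. Its ratio to DIP-beta was 7.30 ± 0.485 in EmcOE brains and 4.43 ± 0.289 in Control brains. Both ratios set the member with the largest log2 fold change against genes with smaller ones, so their direction follows from those values. Both were separate between the groups, were chosen after the values were seen and are given without a test. Summed over the 3 Dprs of the group, the level was 3652 ± 61.1 per kb in EmcOE brains and 2514 ± 110 in Control brains.

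**Figure D3:**
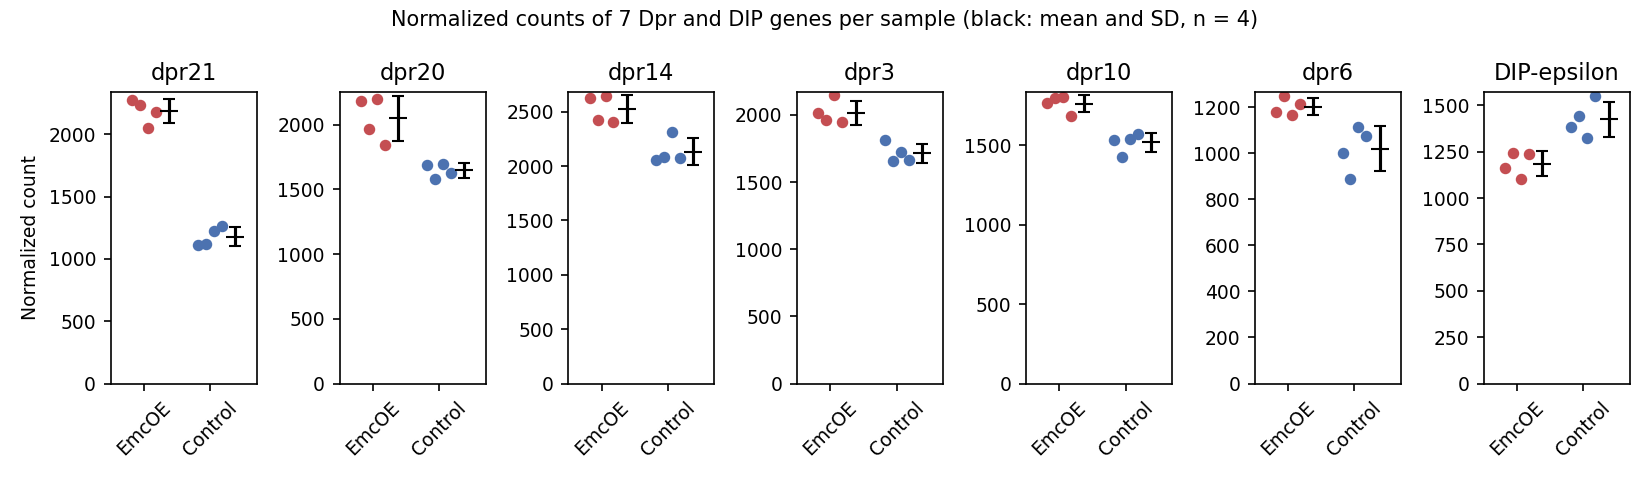
Normalized counts (y axis, from 0, a separate scale for each gene) of 7 Dpr and DIP genes in each of 4 EmcOE and 4 Control samples, with mean and SD in black. All EmcOE samples of dpr21 (2054 to 2276) lie above its Control samples (1114 to 1262), the other Dprs differ by less, and DIP-epsilon is lower in EmcOE brains (1102 to 1245) than in Control brains (1326 to 1549.8).

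The group of DIP-epsilon and DIP-zeta, which bind dpr13, dpr14, dpr19 and dpr20, held calls in both directions. Counts of dpr20 (FBgn0035170, chromosome 3L, 852720 to 857248) were 2179, 1969.9, 2200.4 and 1843 in EmcOE brains and 1687, 1577, 1699 and 1626 in Control brains. The EmcOE samples spread more widely, and their lowest was still above every Control sample. For dpr20 the log2 fold change was 0.32 (SE 0.062, adjusted p = 0.0109). Counts of dpr14 (FBgn0029974, chromosome X, 7903704 to 7908286) were 2622, 2423, 2641 and 2405 in EmcOE brains and 2054, 2086, 2316 and 2069.9 in Control brains. Control 3 was the highest of the Control samples and lay close to the lowest EmcOE sample, without overlap. The log2 fold change of dpr14 was 0.24 (SE 0.055, adjusted p = 0.0201). Its call was lost without EmcOE 3, Control 1, Control 2 or Control 4 (adjusted p of 0.0535, 0.0637, 0.0693 and 0.0565), at log2 fold changes of 0.22 or 0.23. Counts of dpr13 averaged 1891 ± 68.3 in EmcOE brains and 1718 ± 43.5 in Control brains (log2 fold change 0.14, adjusted p = 0.0769), without overlap. Counts of dpr19 averaged 2878 ± 101 in EmcOE brains and 2853 ± 129 in Control brains (0.013, adjusted p = 0.897).

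The opposite direction was found for DIP-epsilon (FBgn0259714, chromosome 2L, 6377771 to 6411326). Its counts were 1161, 1245, 1102 and 1235 in EmcOE brains and 1385, 1440.5, 1326 and 1549.8 in Control brains. Every EmcOE sample was below every Control sample, at a log2 fold change of -0.27 (SE 0.062, adjusted p = 0.0243). The call was lost without EmcOE 3, Control 2 or Control 4 (adjusted p of 0.0613, 0.0683 and 0.0569) and with scaling to total counts alone (log2 fold change -0.20, adjusted p = 0.0874). DIP-zeta, which shares these Dprs, averaged 1783 ± 90.1 in EmcOE brains and 1628 ± 44.2 in Control brains (log2 fold change 0.13, adjusted p = 0.121). The ratio of DIP-epsilon to DIP-zeta per kb was 0.741, 0.847, 0.682 and 0.747 in EmcOE brains and 0.925, 1.02, 0.935 and 1.08 in Control brains. The groups did not overlap in this ratio, which was chosen after the values were seen. Relative to DIP-epsilon, the level of dpr14 was 1.72 ± 0.183 in EmcOE brains and 1.21 ± 0.14 in Control brains. That of dpr20 was 2.01 ± 0.277 in EmcOE brains and 1.35 ± 0.125 in Control brains. Both ratios set genes called in opposite directions against each other, so their direction follows from those calls. They were chosen after the values were seen and are given without a test. The summed level of DIP-epsilon and DIP-zeta overlapped between groups (877 ± 26.8 per kb in EmcOE brains and 909.6 ± 31.7 in Control brains). The summed level of their 4 Dprs did not overlap (3047 ± 87.4 per kb in EmcOE brains and 2737 ± 91.3 in Control brains).

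DIP-eta, DIP-theta and DIP-iota bind dpr1 to dpr5. In this group dpr3 was upregulated (FBgn0053516, chromosome 2L, 2058790 to 2109878). Its counts were 2013, 1960.4, 2145 and 1946 in EmcOE brains and 1813, 1653, 1720.4 and 1665 in Control brains. The groups did not overlap, and the log2 fold change was 0.24 (SE 0.050, adjusted p = 0.0152). Counts of dpr1 averaged 1934 ± 21.3 in EmcOE brains and 1704 ± 49.4 in Control brains, also without overlap. The adjusted p of dpr1 was 0.0188, but its log2 fold change of 0.18 lay under the threshold of 0.2, and it was not called. Scaled to total counts alone, dpr1 was upregulated (0.25, adjusted p = 0.0406). Counts of dpr2 averaged 1145 ± 43.8 in EmcOE brains and 1019 ± 26.5 in Control brains (log2 fold change 0.17, adjusted p = 0.0614). Differences were smaller for dpr4 (2322 ± 59.0 in EmcOE brains and 2216 ± 75.1 in Control brains, log2 fold change 0.068) and dpr5 (994 ± 72.1 in EmcOE brains and 955 ± 113 in Control brains, 0.060). DIP-eta averaged 1053 ± 32.7 in EmcOE brains and 944 ± 47.0 in Control brains (0.16, adjusted p = 0.101), and its groups, like those of dpr2 and dpr4, did not overlap. DIP-theta averaged 1572 ± 75.2 in EmcOE brains and 1530.1 ± 108 in Control brains (0.038, adjusted p = 0.740). Counting was without strand, and 15.7% of the exon length of dpr4 overlapped an annotated non-coding RNA on the other strand. For DIP-theta, 12.6% overlapped one on the same strand. The counts of both genes are therefore uncertain. Overlaps with exons of other features were at most 4.04% (dpr16) in the remaining members. The summed level of the 5 Dprs was 2861 ± 83.6 per kb in EmcOE brains and 2603 ± 67.7 in Control brains, without overlap.

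DIP-alpha and its partners dpr6 and dpr10 are known from the targeting of motor neurons to muscles and from layer-specific wiring of the medulla. All 3 had log2 fold changes near the threshold. Counts of dpr10 (FBgn0052057, chromosome 3L, 10147454 to 10186108) were 1763, 1798, 1802 and 1687 in EmcOE brains and 1534, 1427, 1539 and 1570.0 in Control brains. The groups were separate, and the log2 fold change was 0.22 (SE 0.047, adjusted p = 0.0178). The call of dpr10 was lost without EmcOE 2 or Control 2 (adjusted p of 0.0653 and 0.0612). Its neighbour dpr6 (FBgn0040823, chromosome 3L, 9974651 to 10139360) lies 8.09 kb away. Counts of dpr6 were 1179, 1249, 1167 and 1213 in EmcOE brains and 1002, 890.5, 1117 and 1074 in Control brains. The groups did not overlap, but the Control samples of dpr6 were spread widely, with Control 2 the lowest. The log2 fold change was 0.24 (SE 0.070), and the adjusted p of 0.0608 did not pass. With DESeq2 in place of edgeR the adjusted p of dpr6 was 0.0393, which added it as a sixth upregulated member, against 4.09% of all features upregulated by that tool. DESeq2 downregulated DIP-epsilon alone among the members, against 6.75% of all features. Without Control 3 edgeR also called dpr6 upregulated (adjusted p = 0.0471). Counts of DIP-alpha were 491, 509, 509.9 and 602 in EmcOE brains and 479, 435, 416 and 512 in Control brains. The groups of DIP-alpha overlapped, and its log2 fold change of 0.20 (0.195, SE 0.091) had an adjusted p of 0.206. The summed level of dpr6 and dpr10 was 687 ± 15.6 per kb in EmcOE brains and 590 ± 32.2 in Control brains, without overlap.

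**Figure D4:**
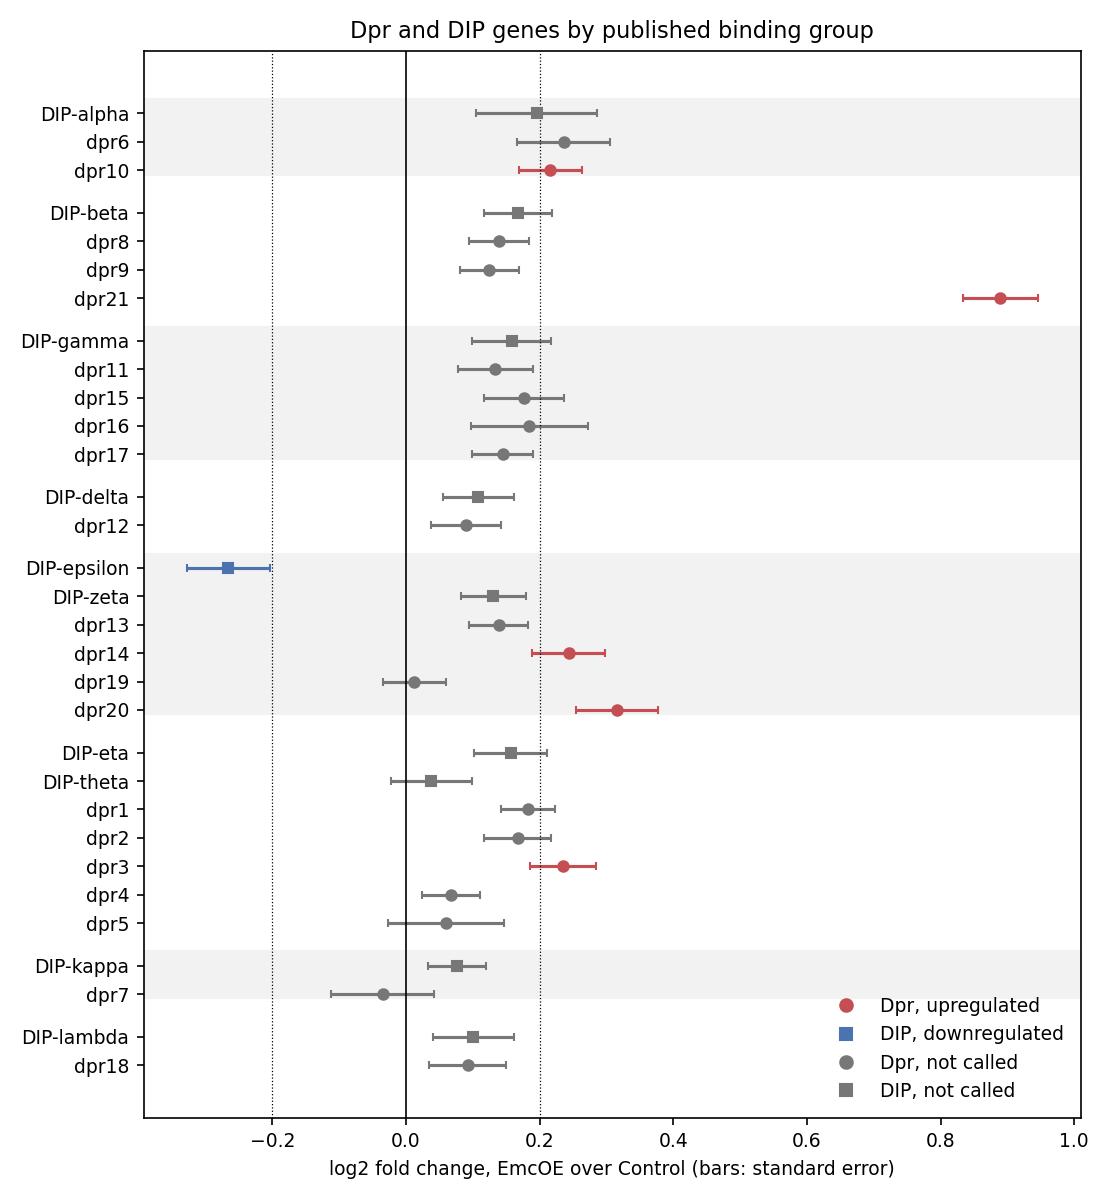
Log2 fold change, EmcOE over Control (x axis), with its standard error, for the 31 Dpr (circles) and DIP (squares) genes tested, by published binding group, with dotted lines at -0.2 and 0.2. Red marks the 5 upregulated Dprs and blue the downregulated DIP-epsilon, and 24 of the 25 uncalled genes in grey lie above 0.

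DIP-gamma and its Dprs, dpr11, dpr15, dpr16 and dpr17, held no gene called by edgeR or DESeq2 with all samples. Of these 5 genes, 4 were higher at an unadjusted p of at most 0.05 in edgeR, against 12.8% of all features. Dpr11 in R7 photoreceptors and DIP-gamma in their target neurons of the medulla are among the best studied partners of the family. DIP-gamma averaged 1971 ± 151 in EmcOE brains and 1765 ± 67.7 in Control brains (log2 fold change 0.16, adjusted p = 0.122). Counts of dpr11 averaged 3403 ± 178 in EmcOE brains and 3102 ± 187 in Control brains (0.13, adjusted p = 0.166). Those of dpr15 averaged 1395 ± 72.7 in EmcOE brains and 1233 ± 76.5 in Control brains (0.18, adjusted p = 0.094), and without EmcOE 1 dpr15 was upregulated (0.21, adjusted p = 0.0423). Those of dpr17 averaged 1711 ± 70.3 in EmcOE brains and 1549 ± 34.1 in Control brains (0.14, adjusted p = 0.0752). Counts of dpr16 were 767, 775, 949.6 and 932 in EmcOE brains and 786, 786, 757 and 679.7 in Control brains. In dpr16, EmcOE 3 and EmcOE 4 were high and the other EmcOE samples lay among the Control samples (log2 fold change 0.18, SE 0.087, adjusted p = 0.216). All 5 genes of the group had log2 fold changes above 0, against 53.0% of all features. The samples were fully separate and higher in EmcOE brains in dpr11 and dpr17, against 8.51% of all features. The summed level of the 4 Dprs was 1807 ± 76.8 per kb in EmcOE brains and 1624 ± 52.3 in Control brains, with every EmcOE sample higher.

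The remaining genes showed differences within or near the spread of the samples. Dpr12 in mushroom body neurons and DIP-delta in dopaminergic neurons are known as partners. Counts of dpr12 were 8086, 8196, 9142 and 8427 in EmcOE brains and 8035, 7543, 8002 and 8224 in Control brains. The groups overlapped in dpr12, with EmcOE 3 the highest (log2 fold change 0.09, SE 0.052, adjusted p = 0.311). DIP-delta averaged 1608 ± 68.5 in EmcOE brains and 1491 ± 75.1 in Control brains (0.11, adjusted p = 0.229). Counts of dpr7 were 5066, 5512, 4633 and 5318 in EmcOE brains and 4626, 5037, 5597 and 5769 in Control brains. The lowest and the highest of these 8 samples were both Control samples, and the log2 fold change was -0.035 (SE 0.077, adjusted p = 0.820). DIP-kappa, its partner, averaged 1853 ± 74.2 in EmcOE brains and 1757 ± 19.99 in Control brains (0.076, adjusted p = 0.301), with every EmcOE sample above every Control sample. Genes placed in no binding group were dpr18, with 2474 ± 103.8 in EmcOE brains and 2321 ± 168 in Control brains (0.092, adjusted p = 0.347), and DIP-lambda, with 796 ± 44.6 in EmcOE brains and 743 ± 27.8 in Control brains (0.10, adjusted p = 0.328).

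Across the 7 binding groups, the summed Dpr level did not overlap between EmcOE and Control brains in 5, and overlapped in the groups of DIP-delta and DIP-kappa, which hold 1 Dpr each. The summed DIP level was separate in the groups of DIP-beta (302 ± 10.3 per kb in EmcOE brains and 269 ± 13.0 in Control brains) and DIP-kappa (465 ± 18.6 in EmcOE brains and 441 ± 5.01 in Control brains). These sums are descriptions of genes whose single tests are given above, and are not a separate result. Taken singly, 14 of 21 Dprs and 3 of 10 DIPs tested were separate and higher in EmcOE brains, against 8.51% of all features.

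**Figure D5:**
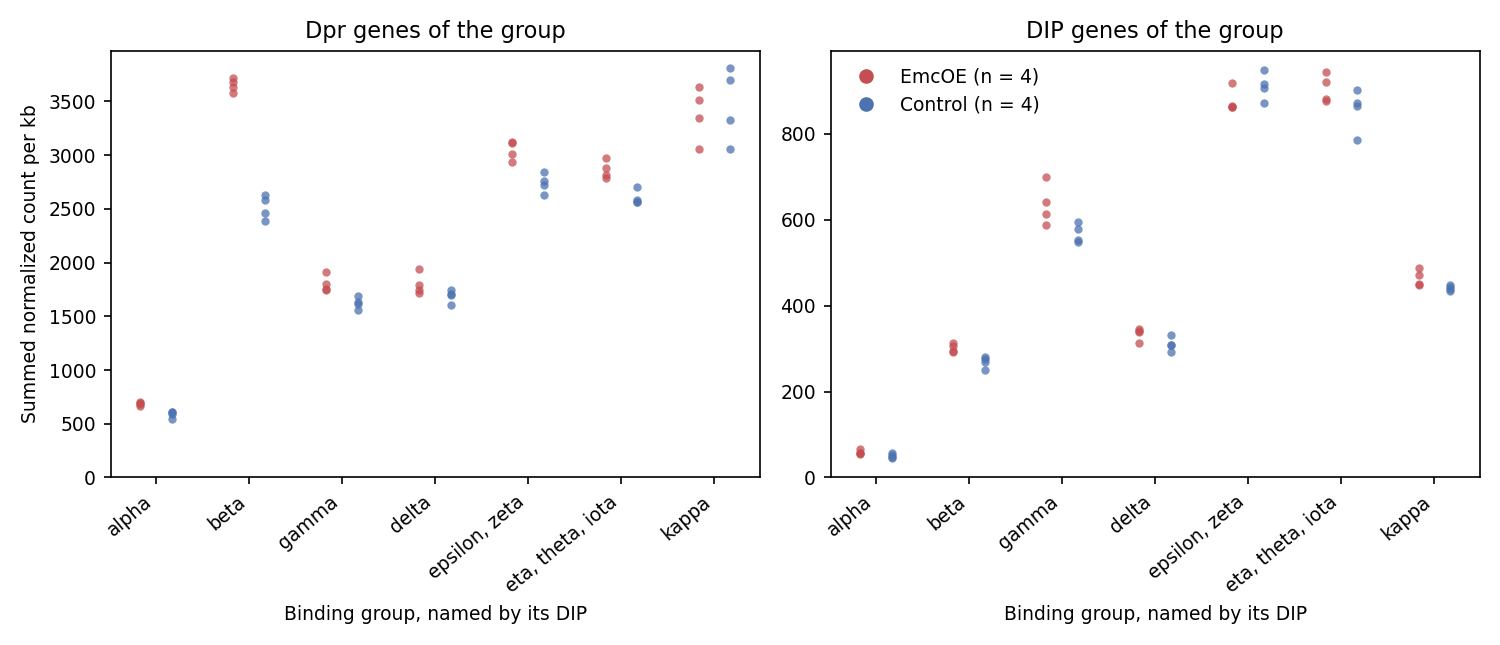
Summed normalized count per kb of exon (y axes, from 0) of the Dpr genes (left) and DIP genes (right) in 7 binding groups, for each of 4 EmcOE and 4 Control samples. The widest separation is in the Dprs of the DIP-beta group (3574 to 3717 in EmcOE brains, 2386 to 2627 in Control brains), while the samples of dpr7, in the DIP-kappa group, are mixed.

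The members shared features that the rule did not use. Their genes are long, with a median span of 32.5 kb against 2.92 kb for all features tested, and ran from 3.74 kb (dpr19) to 379 kb (DIP-lambda). Over all features tested, the log2 fold change had a rank correlation of 0.12 with gene span and 0.17 with exon length, and over the 31 members 0.28 with span and 0.24 with exon length. Each sample's trend of log ratios on gene span was then removed, a setting added after the data were seen. With this trend removed, the median of the members was 0.080 against 0.0090 for all features. Upregulated were 3 members, against 3.3% of all features. Under that setting dpr3 (log2 fold change 0.15, adjusted p = 0.0941) and dpr10 (0.15, adjusted p = 0.0775) were no longer called, while dpr21 (0.77), dpr20 (0.31) and dpr14 (0.24) were. With the trend on exon length removed, dpr10 had a log2 fold change of 0.199, just under the threshold. The members lie on every major chromosome arm, with 9 on 2L, 5 on 2R, 4 on 3L, 8 on 3R, 5 on X and 1 on chromosome 4. Besides dpr6 and dpr10, close neighbours are DIP-eta and DIP-theta (8.35 kb apart), dpr17 and dpr15 (27.4 kb) and dpr5 and dpr4 (27.5 kb). In each of these 4 pairs both genes bind, or are, partners of the same binding group.

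For each called member, the 6 nearest tested features were looked at after the values were seen. The nearest tested feature to dpr21 lay 98.4 kb away, and of the 6 nearest, 3 were upregulated. These were lncRNA:CR46481 (log2 fold change 1.16, adjusted p = 0.0121), CG41378 (0.48, adjusted p = 0.0152) and CG17684 (0.87, adjusted p = 5.82e-06), all at lower coordinates, 200.03, 219.8 and 804 kb away. The other 3, Scp1 (-0.27), MFS17 (0.041) and uex (-0.034), were not called. Whether the change of dpr21 is tied to its surroundings or to the crossed line was not tested. The gene Dci, 0.047 kb from dpr20, was also upregulated (0.25, adjusted p = 0.0438). The called neighbours of dpr14 and dpr3 went the other way, RpS6 at 2.37 kb from dpr14 (-0.22, adjusted p = 0.0218) and CG4259 at 17.4 kb from dpr3 (-0.53, adjusted p = 0.0367) being downregulated. The called neighbour of dpr10, lncRNA:CR46003 at 100.8 kb, was upregulated (1.01, adjusted p = 0.0121). Nepl6 (-0.36), CG42369 (-0.35) and Nepl5 (-0.012) lie within the span of DIP-epsilon, share no exon with it and were not called, nor were its other 3 nearest features.

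Samples within a group differed little for these genes. The median coefficient of variation of the 31 members was 4.42% in EmcOE brains and 4.52% in Control brains. EmcOE 3 was the highest EmcOE sample for 18 of 31 members, and Control 2 was the lowest Control sample for 16. Without EmcOE 3 the median log2 fold change of the members was 0.12 and 4 were upregulated, against 2.41% of all features. Without Control 2 the median was 0.12 and 3 were upregulated, against 2.08%. The members together took 0.263% to 0.306% of the counts in EmcOE samples and 0.238% to 0.259% in Control samples.

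Other recognition genes of the immunoglobulin and leucine-rich repeat classes, taken from a list of 35 that were all tested, were also mostly higher in EmcOE brains. Of these, 30 had a log2 fold change above 0, against 53.0% of all features, and the median was 0.12. This list, too, was chosen with earlier results of these data known. The samples were separate and higher in EmcOE brains for 13, against 8.51% of all features. Upregulated were 5, against 3.57% of all features. They were tutl (log2 fold change 0.23, adjusted p = 0.0352), sns (0.21, adjusted p = 0.0488), fred (0.24, adjusted p = 0.0289), Dscam3 (0.24, adjusted p = 0.0311) and Dscam4 (0.22, adjusted p = 0.0261). DESeq2 called Dscam2 (0.24, adjusted p = 0.0234) in place of sns (0.199, under the threshold). Leaving out samples changed these calls. Of the list, 8 were upregulated without EmcOE 1, 1 without EmcOE 2, 2 without Control 1, and 3 without Control 3 or Control 4. The count was 0 without EmcOE 3, EmcOE 4 or Control 2. In these fits, 2.08% (without Control 2) to 4.81% (without EmcOE 1) of all features were upregulated. The count was also 0 after either length correction, against 3.29% (exon length) and 3.3% (gene span) of all features. In the fits with 0 calls, 10 to 17 of the list were higher at an unadjusted p of at most 0.05. In the main fit 17 were, against 12.8% of all features. The genes tutl, Dscam3 and Dscam4 encode neuronal immunoglobulin superfamily proteins, sns encodes a nephrin-like adhesion protein, and fred is related to the adhesion gene echinoid.

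Most general neuronal markers were also higher, but only 1 was called. Of 5 such markers, 4 had a log2 fold change above 0, against 53.0% of all features, and the median was 0.19. The RNA-binding protein gene fne was upregulated (0.33, adjusted p = 0.00876), and its groups did not overlap. The groups overlapped in brp (0.27, adjusted p = 0.0527), elav (0.19), Syt1 (0.12) and nSyb (-0.065), and none of these was called. The summed normalized counts of the 5 markers also overlapped (112805 to 126501 in EmcOE brains and 107058 to 116925 in Control brains). The GABA transporter gene VGAT was upregulated (0.23, adjusted p = 0.00696), and Gad1 (0.028), the 2 cholinergic markers VAChT (0.16) and ChAT (0.14), and the glutamatergic marker VGlut (-0.081) were not called. Of 7 glial markers, 4 were lower and 3 higher, with a median of -0.064. Their sums did not overlap (100078 to 109543 in EmcOE brains and 112465 to 116433 in Control brains). Samples were separate and lower in EmcOE brains for Gs2 and for alrm (-0.19, adjusted p = 0.0837, not called), against 7.86% of all features. The glutamine synthetase gene Gs2 was the glial marker that was downregulated (-0.27, adjusted p = 0.00696). All 7 photoreceptor markers were lower in EmcOE brains, with adjusted p values of 0.105 (trp) or more (median -0.089, sums 442063 to 484176 in EmcOE brains and 462199 to 545999 in Control brains). Every marker of every cell type list passed the count filter. The part of cell composition in the differences of the Dpr and DIP genes was not tested.

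Markers of tissues that can adhere to dissected brains varied more between samples. Of 7 fat body markers, Fbp1 (log2 fold change 2.06, adjusted p = 0.00604) and Fbp2 (1.96, adjusted p = 0.00567) were upregulated, and the sums overlapped (89279 to 160730.0 in EmcOE brains and 52536 to 201038 in Control brains). Of 6 muscle markers, 5 were lower, with adjusted p values of 0.101 (Act88F) or more (sums 17723 to 26048 in EmcOE brains and 20758 to 34015 in Control brains). Of 3 hemocyte markers, Hml (-0.69, adjusted p = 0.00553) and NimC1 (-0.48, adjusted p = 0.0277) were downregulated, and the sums overlapped (5493 to 6357 in EmcOE brains and 5769 to 6303 in Control brains). All 3 tracheal markers were higher, with adjusted p values of 0.159 (serp) or more (sums 6632 to 8504 in EmcOE brains and 6130.0 to 7724 in Control brains). Their part in the results was not tested either.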

How the data were processed

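The deposited values were raw counts of read pairs per gene. Per the labels and the study's methods, the authors trimmed the reads, mapped them with STAR 2.7.4a in a repeated pass to BDGP6.32, and counted pairs with featureCounts 2.0.1 without strand, from unstranded poly(A) libraries. The table also gave the coordinates and exon length of each feature. Groups were taken from the sample labels, and the 4 samples of each group are biological replicates per the paper, each pooled from many brains. Within each group, no library was a duplicate of another, and pairs across groups were not checked for this.

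In R 4.3.3, edgeR 4.0.16 (quasi-likelihood test, TMM) was fitted to the 9788 features that reached a mean of 20 normalized counts in either group, with no term for the replicate number. For normalized counts, each count was scaled to the mean TMM-corrected library size. DESeq2 1.42.0, other scalings (total counts, DESeq2 size factors), filters (none, 100), thresholds, the robust option, length corrections (lowess span 0.3), the replicate block and leaving out each sample were alternatives. The fits were tested on simulated data. The members and lists were chosen with earlier results of these data known.

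All members are named. Those that passed in edgeR, with the block or in DESeq2, and the 3 highest and 3 lowest tested in Control brains per kb, are given for every sample. Non-members are named if they are emc, da, cell type markers or called recognition genes, and others were chosen after their values were seen. Binding groups are from published interactions and were not measured. The counts at the depth of each library are large for all tested members, and DIP-iota was too low to test. Sequences were not used here.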

Additional observations from a re-analysis of the deposited data

Results flagged for a closer look

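In 4 of 64 groups of 4 samples, 1 sample of a Dpr or DIP gene lay far from the other 3 relative to the range of its group, where chance gives about 1 in 20. EmcOE 2 had 1902 normalized counts of dpr1, against 1944 to 1946 in the other EmcOE samples. EmcOE 2 was also low for dpr13, with 1788 against 1920.5 to 1928. Control 2 had 2824 normalized counts of dpr11, against 3169.9 to 3223 in the other Control samples. Control 3 had 2316 of dpr14, against 2054 to 2086, and without it the log2 fold change of dpr14 was 0.28.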

How the results depend on the processing

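The signs of the log2 fold changes of dpr3, dpr6, dpr10, dpr14, dpr20, dpr21, DIP-epsilon and emc and of the members' median held under every alternative run. The upregulated count of 5 ran from 3 to 7 over 12 alternatives other than leaving out samples. It was 7 under scaling to total counts, where 4.22% of all features were upregulated. It was 3 after the gene span correction, chosen after seeing the data, where 3.3% of all features were. The downregulated count was 0 under total counts and 1 under the other 11. Under total counts 272 of 9794 features were downregulated, and in the main fit 501 of 9788. The median log2 fold change of the members was 0.21 under total counts, beside 0.081 for all features, and 0.080 after the gene span correction, and stayed within 0.11 to 0.14 under the other 8. Leaving out each sample gave 3 to 6 upregulated members, 0 to 1 downregulated members, and medians of 0.12 to 0.15. In those fits 2.08% (without Control 2) to 4.81% (without EmcOE 1) of all features were upregulated. Downregulated were 323 of 9810 features (without Control 2) to 513 of 9845 (without Control 3). Without Control 2 the members upregulated were 3, and without EmcOE 3, Control 2 or Control 4 the members downregulated were 0. Calls of dpr21, dpr20 and dpr3 held in all 8 such fits, dpr10 in 6, DIP-epsilon in 5 and dpr14 in 4. The log2 fold change of dpr6 passed under total counts (0.30), DESeq2 (0.23) and the robust option (0.24). Also gained were dpr1 under total counts (0.25), dpr15 without EmcOE 1 (0.21) and dpr6 without Control 3 (0.28). The cause of these changes was not tested. The change of emc passed in every fit (0.26 to 0.35).

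Same-numbered samples of the groups did not deviate together (correlations of -0.49, 0.15, 0.032 and -0.21), and for 1 number, 2, the samples correlated best with their own number. With the replicate block, 5 members were upregulated, against 3.33% of all features, and 1 was downregulated, beside 487 of 9788 features. The median was 0.14, and the calls were of the same genes. Among the other recognition genes the block gained Dscam2 (0.24, adjusted p = 0.0319) and lost sns (0.20, adjusted p = 0.0583), with edgeR. Every tested member had counts far above the filter, and the 25 not called had standard errors of 0.040 to 0.091 in log2 units.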
